A study of Homo sapiens with 4 samples.

Results

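The retinoblastoma (RB) pathway decides whether a cell leaves G1 and copies its DNA, and 10 of its genes were examined for the binding of BRG1. They were the pocket protein genes RB1, RBL1 and RBL2, the inhibitor genes CDKN1A, CDKN1B and CDKN2A, the cyclin genes CCND1 and CCNE1, the kinase gene CDK6 and the transcription factor gene E2F1. The genes were taken by name, with no measured value in the rule, but with earlier results of these data known. They are 10 of the 20162 protein-coding genes of the annotation used. Every CUT&RUN peak that touched the annotated gene or the 20 kb on each side of it was assigned to that gene, and this stretch is called the window below.

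In CUT&RUN, as done here, an antibody brings a nuclease to a chromatin protein in permeabilized cells, and the short DNA fragments cut around that protein are sequenced. The cells were SW-13, an established adrenocortical carcinoma line that expresses neither BRG1 nor BRM, which are the alternative motor subunits of SWI/SNF chromatin remodelers. One group of 2 biological replicates (iBRG1) expressed wild-type BRG1, and the other group of 2 (i∆HSA) expressed BRG1 without the helicase/SANT-associated domain, the region that carries actin and actin-related proteins. Both proteins had a C-terminal V5 tag, were induced with doxycycline for 24 h from a stably integrated vector and were detected with an anti-V5 antibody in 300000 cells per sample. Each construct was studied in an individual clone, so a difference between the proteins cannot be told apart from a difference between the clones. The data were 1 peak list per construct with no value per replicate, so no value below has a replicate error, no difference between the lists was tested, and the depth reached is unknown. A window with no peak means that no peak was left there after the authors' calling and filtering, not that the protein was absent. Cells without doxycycline and negative controls were not analysed here.

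In G1 the pocket proteins bind E2F transcription factors and hold down the genes that these activate for DNA replication. Cyclin D with CDK4 or CDK6, and then cyclin E with CDK2, phosphorylate the pocket proteins and free E2F, and the CDKN1 and CDKN2 proteins inhibit those kinases. BRG1 can bind RB and is known to slow the growth of cells that lack it in a manner that needs this pathway.

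A selection of DNA under the peaks is shown first. Apart from the RB1 promoter, the stretches were picked after seeing the data because they hold the AP-1 element (TGACTCA, which reads TGAGTCA on the other strand), in peaks of high score, in shared peaks or in peaks of 1 list alone. Not every peak has the element, and 2 peaks of the i∆HSA list alone, just upstream of CDK6 (score 14) and downstream of CDKN1A (score 8), hold none. All stretches are the plus strand of GRCh37 (hg19), 5′ to 3′, with the matching letters in capitals and 50 bases on each side of a match, and none overlaps an exon of a protein-coding gene.

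At CDK6 the sites chosen lay in the intron 3 peak with the highest iBRG1 score (chr7:92381701-92381807), in the intron 5 peak with the highest i∆HSA score (chr7:92262819-92262925), in an intron 3 peak of the iBRG1 list alone (chr7:92370282-92370388) and in the shared peak downstream of the gene, which held 2 matches (chr7:92224678-92224884). From the iBRG1 midpoints these matches began at 519, -511, -838, and 68 and 168 bp in that order, with minus for lower coordinates. From the i∆HSA midpoints the shared ones began at 604 bp (intron 3), 99 bp (intron 5), and -151 and -51 bp (downstream).
CDK6 intron 3, shared: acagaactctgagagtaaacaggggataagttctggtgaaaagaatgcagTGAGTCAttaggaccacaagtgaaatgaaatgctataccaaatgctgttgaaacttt
CDK6 intron 5, shared: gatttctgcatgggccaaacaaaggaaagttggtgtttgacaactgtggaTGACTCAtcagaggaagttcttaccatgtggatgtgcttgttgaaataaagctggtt
CDK6 intron 3, iBRG1 alone: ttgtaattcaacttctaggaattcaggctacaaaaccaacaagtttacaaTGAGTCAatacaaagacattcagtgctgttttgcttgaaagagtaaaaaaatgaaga
CDK6 downstream, shared: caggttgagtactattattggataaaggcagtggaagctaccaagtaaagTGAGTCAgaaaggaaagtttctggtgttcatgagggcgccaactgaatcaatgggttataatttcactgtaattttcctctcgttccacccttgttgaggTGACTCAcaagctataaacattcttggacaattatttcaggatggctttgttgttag

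At the inhibitor genes the sites chosen, which leave out further AP-1 matches at CDKN1B, lay in the shared intron 1 peak of CDKN2A (chr9:21972954-21973060), in a peak of the iBRG1 list alone upstream of CDKN1B (chr12:12843296-12843402) and in a peak of the i∆HSA list alone downstream of CDKN1B (chr12:12879855-12879961).
CDKN2A intron 1, shared: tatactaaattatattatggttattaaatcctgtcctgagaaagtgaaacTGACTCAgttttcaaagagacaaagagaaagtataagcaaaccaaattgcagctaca
CDKN1B upstream, iBRG1 alone: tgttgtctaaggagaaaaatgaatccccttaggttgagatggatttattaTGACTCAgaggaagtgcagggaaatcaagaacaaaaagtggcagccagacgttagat
CDKN1B downstream, i∆HSA alone: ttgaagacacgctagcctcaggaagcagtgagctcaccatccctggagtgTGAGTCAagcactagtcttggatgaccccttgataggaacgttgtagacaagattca

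The 200 bases just before the annotated start of RB1 (chr13:48877680-48877879) are shown because the i∆HSA list alone had a peak over them. The capitals mark a GC box, GGGCGG, that begins 40 bp before the start site of the reference transcript, and an E2F element, TTTCCCGC, that begins 25 bp before it.
RB1 promoter, i∆HSA alone: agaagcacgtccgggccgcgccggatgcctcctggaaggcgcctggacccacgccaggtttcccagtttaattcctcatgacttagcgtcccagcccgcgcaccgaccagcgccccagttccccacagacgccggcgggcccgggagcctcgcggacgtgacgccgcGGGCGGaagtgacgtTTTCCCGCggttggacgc

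A peak of the iBRG1 list was found in the windows of 7 of the 10 genes, and a peak of the i∆HSA list in 9. Among all protein-coding genes 57.9% had an iBRG1 peak in the same kind of window and 64.6% had an i∆HSA peak. The 7 genes with an iBRG1 peak were RB1, RBL1, RBL2, CDKN1B, CDKN2A, CDK6 and E2F1, and each of them also had an i∆HSA peak, against 44.1% of all protein-coding genes with peaks of both lists. CDKN1A, the p21 gene, and CCNE1, the cyclin E1 gene, had i∆HSA peaks alone, and CCND1, the cyclin D1 gene, had no peak of either list. A peak was called shared if it had 1 bp or more in common with a peak of the other construct. Shared peaks lay in the windows of RB1, CDKN1B, CDKN2A and CDK6, and 23.1% of all protein-coding genes had such a peak.

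The windows together held 17 iBRG1 peaks and 21 i∆HSA peaks over 1.20 Mb. This was a density of 14.2 per Mb for iBRG1 (95% exact Poisson interval 8.28 to 22.7) and of 17.6 per Mb for i∆HSA (10.9 to 26.8), against 10.2 and 11.0 per Mb over the windows of all protein-coding genes. Of the 17 iBRG1 peaks 7 were shared (41.2%, 95% Wilson interval 21.6 to 64.0), against 20.5% of the whole iBRG1 list. Of the 21 i∆HSA peaks 7 were shared (33.3%, 17.2 to 54.6), against 19.6% of the whole i∆HSA list. These intervals cover counting error only. CDK6 alone gave 3 of the 7 shared peaks, and without it the shared percentage was 33.3% of the 12 iBRG1 peaks left and 23.5% of the 17 i∆HSA peaks left.

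**Figure D1:**
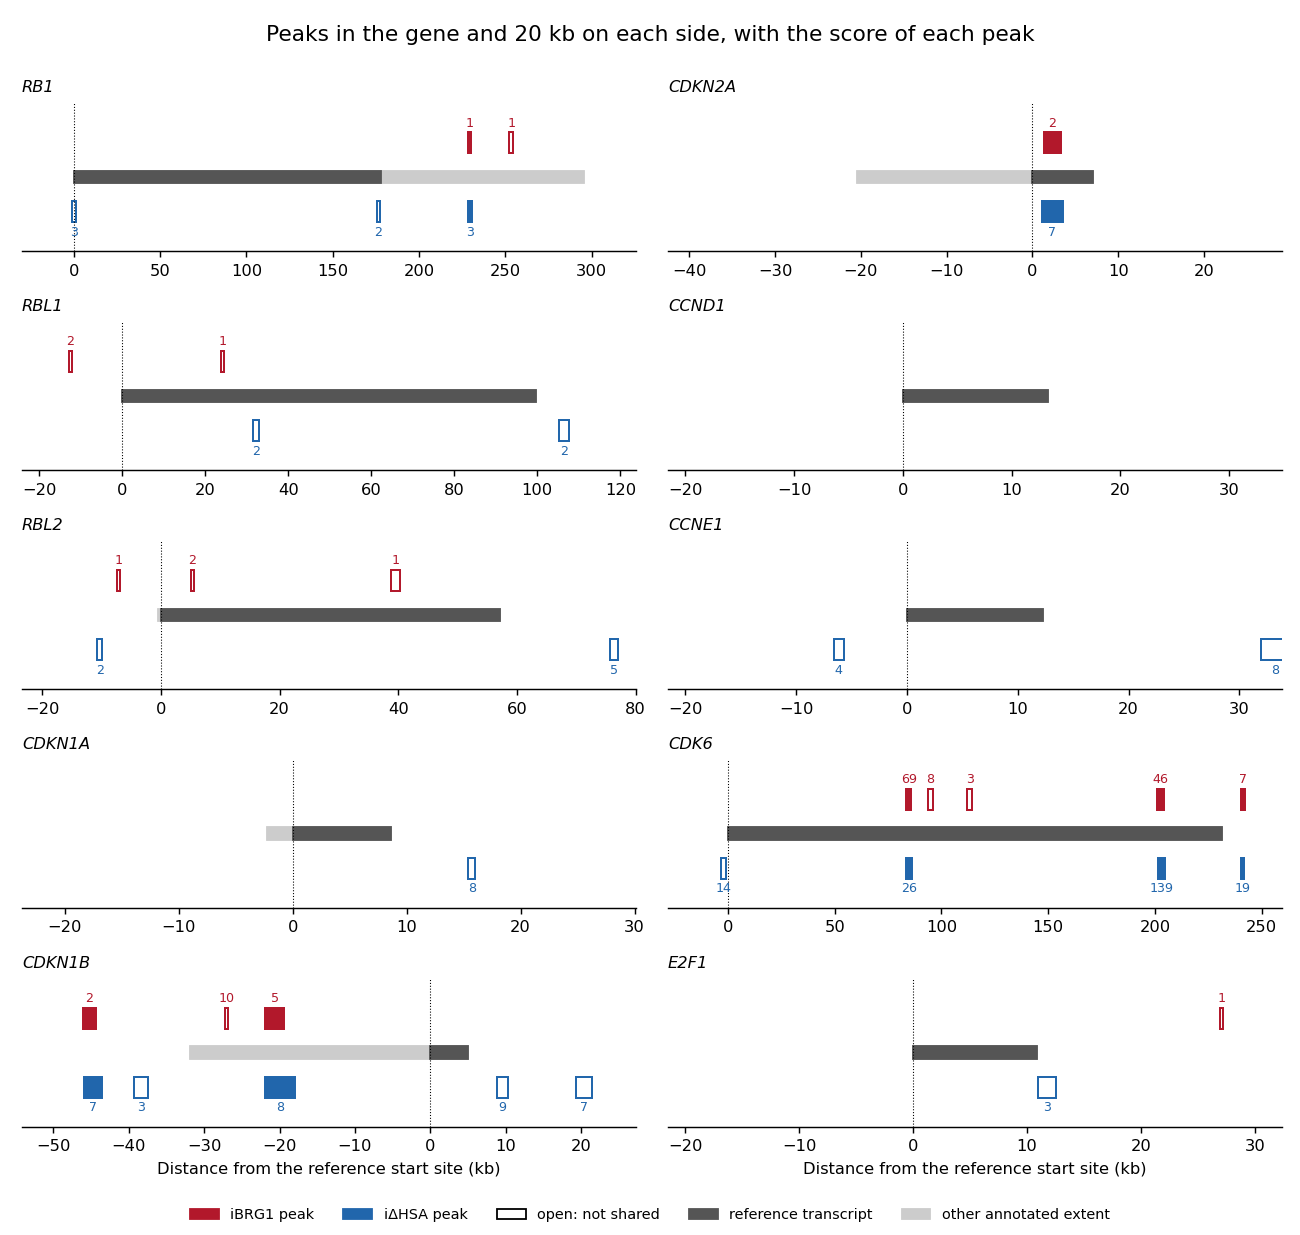
Peaks in the windows of the 10 genes, drawn by distance in kb from the start site of the reference transcript in the direction of transcription, with iBRG1 peaks above and i∆HSA peaks below each gene, the score printed at each peak and shared peaks filled. The 7 shared pairs lie at RB1, CDKN1B, CDKN2A and CDK6, and the CCND1 window holds no peak.

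The authors' score of a peak is a whole number with no stated scale. It served here to order peaks and to set the members beside their own list. The median score of the 17 iBRG1 peaks was 2, as it was for the 24212 peaks of that list, and 35.3% of them reached a score of 5, against 27.2% of the list. The median of the 21 i∆HSA peaks was 7, against 4 for the 25371 peaks of that list, and 57.1% reached a score of 5, against 41.1%. Shared peaks had medians of 5 (iBRG1) and 8 (i∆HSA), the same as all shared peaks of the lists, and the peaks that were not shared had medians of 1.5 and 3.5. The gene with the highest scores was CDK6 in both lists.

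**Figure D2:**
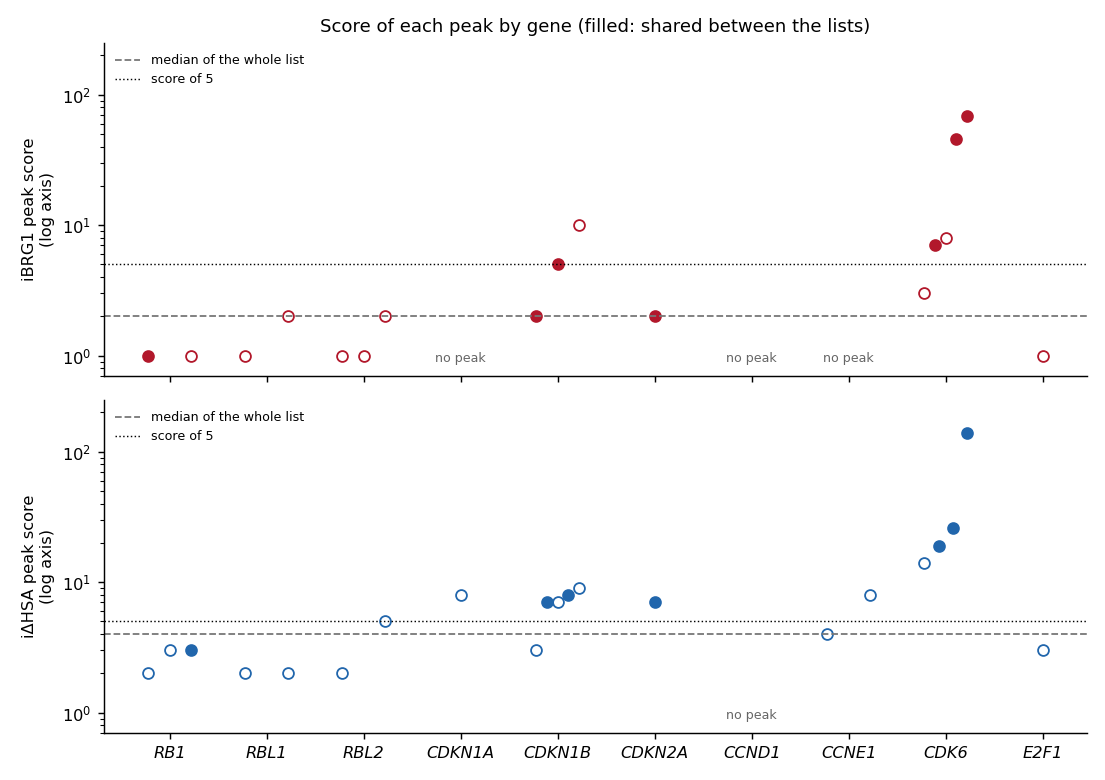
Score of every peak in the 10 windows on a log axis, by gene, for the iBRG1 list (top) and the i∆HSA list (bottom), with filled points for shared peaks, a dashed line at the median of the whole list and a dotted line at a score of 5. CDK6 holds the highest score of both panels, and RB1, RBL1 and E2F1 have no peak above a score of 3.

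The first group was the pocket protein genes, which block E2F. RB1, the retinoblastoma gene itself (ENSG00000139687, chr13:48877880-49173572, plus strand), had an i∆HSA peak across its start site at chr13:48877037-48879193. Its score was 3, which 74.0% of that list equalled or passed, and it was 2157 bp wide with a GC content of 55.1%. The iBRG1 list had no peak there, and its nearest peak was 30.5 kb away. Another i∆HSA peak with a score of 2 (chr13:49054089-49054576) touched exon 27, the last exon of the reference transcript, and began 45 bp before it. The shared pair of the RB1 window lay at chr13:49106472-49107906 in the iBRG1 list (score 1) and at chr13:49106294-49108481 in the i∆HSA list (score 3). The annotated RB1 gene runs beyond its reference transcript, which ends at 49056026, and this pair sat at the promoter of RCBTB2, 0.027 kb from the RCBTB2 start by the iBRG1 midpoint. A last iBRG1 peak with a score of 1 (chr13:49130922-49131448) also lay beyond the reference transcript. Within the reference transcript of RB1, therefore, the iBRG1 list had no peak and the i∆HSA list had peaks at its start and its last exon.

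RBL1, which encodes p107 (ENSG00000080839, chr20:35624752-35724400, minus strand), had 2 peaks in each list and none was shared. The iBRG1 peaks were in intron 2 (chr20:35699989-35700469, score 1) and 12.2 kb upstream (chr20:35736601-35737128, score 2). The upstream peak lay within 1 kb of the start of an MROH8 transcript that is not annotated as protein-coding. Its nearest protein-coding start was that of RBL1, 12.5 kb from its midpoint. The i∆HSA peaks were in intron 7 (chr20:35691425-35692884, score 2) and downstream (chr20:35616766-35619058, score 2). The closest pair of the lists was 7.11 kb apart, between introns 2 and 7.

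RBL2, which encodes p130 (ENSG00000103479, chr16:53467889-53525560, plus strand), had 3 iBRG1 peaks and 2 i∆HSA peaks, again with none shared. The iBRG1 peaks lay 6.91 kb upstream (chr16:53461017-53461475, score 1), in intron 2 (chr16:53473508-53473859, score 2) and in intron 17 (chr16:53507198-53508638, score 1). The i∆HSA peaks lay 9.83 kb upstream (chr16:53457592-53458552, score 2) and 18.4 kb beyond the gene (chr16:53544004-53545461, score 5), where the nearest start was that of AKTIP. The upstream peaks of the lists were 2.46 kb apart. Over the pocket protein genes no iBRG1 score passed 2 and no i∆HSA score passed 5, and the one promoter peak of these genes was the i∆HSA peak at RB1.

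The inhibitor genes differed more from each other. CDKN1A (ENSG00000124762, chr6:36644237-36655114, plus strand), whose p21 protein blocks cyclin E with CDK2, had no iBRG1 peak, and the nearest one was 81.8 kb from the gene. The i∆HSA list had 1 peak with a score of 8 at chr6:36661883-36662510, which 23.1% of the list equalled or passed. It lay 6.77 kb beyond the 3′ end of the gene and 3.41 kb from the start of RAB44, with a GC content of 33.3%.

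CDKN1B (ENSG00000111276, chr12:12838432-12875303, plus strand), which encodes p27, had 3 iBRG1 and 5 i∆HSA peaks, and 2 pairs were shared. The reference transcript of CDKN1B starts at 12870302, inside a longer annotated gene, and 0 of these peaks had the CDKN1B start as their nearest protein-coding start. One shared pair (iBRG1 chr12:12848430-12850950, score 5, and i∆HSA chr12:12848362-12852386, score 8) covered the promoter of the neighbour GPR19 and the start of an alternative CDKN1B transcript that is not annotated as protein-coding, 20.6 kb upstream of the reference start by the iBRG1 midpoint. The other pair (iBRG1 chr12:12824228-12825945, score 2, and i∆HSA chr12:12824411-12826820, score 7) lay within GPR19. The iBRG1 list alone had a narrow peak of 312 bp with a score of 10 (chr12:12843118-12843429), which only 11.0% of that list equalled or passed, and its AP-1 element shown above began 73 bp from the peak midpoint. The i∆HSA list alone had peaks with scores of 3 (chr12:12831045-12832868), 9 (chr12:12879156-12880538) and 7 (chr12:12889567-12891685). The last 2 lay downstream in APOLD1, 0.982 kb and 11.8 kb from its start, and the AP-1 element of the former began 58 bp from its midpoint.

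CDKN2A (ENSG00000147889, chr9:21967751-21995300, minus strand), which encodes the CDK4 and CDK6 inhibitor p16 and, from another start, ARF, had 1 peak in each list. They were a shared pair in intron 1 of the reference transcript, at chr9:21971564-21973534 in the iBRG1 list (score 2) and chr9:21971323-21973783 in the i∆HSA list (score 7). The whole iBRG1 peak of 1971 bp lay inside the i∆HSA peak. The peaks came within 1.32 kb and 1.07 kb of the reference start and within 1 kb of the start of another CDKN2A transcript, so both counted as promoter peaks. The region had a low GC content (32.3% and 33.6%). Its AP-1 element, printed above, began 455 bp from the iBRG1 midpoint and 451 bp from the i∆HSA midpoint. The next i∆HSA peak outside the window was 32.2 kb from the gene (chr9:22027510-22031291, score 10) and belonged to the window of CDKN2B, the neighbouring inhibitor gene.

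The cyclin genes had no iBRG1 peak. CCND1 (ENSG00000110092, chr11:69455924-69469242, plus strand), which encodes the cyclin that activates CDK4 and CDK6, was the 1 gene of the 10 with no peak in either list. The nearest iBRG1 peak was 40.5 kb away with a score of 1, and the nearest i∆HSA peak was 39.2 kb away with a score of 2. Among protein-coding genes with windows of at most 60 kb, a limit chosen after seeing the data, 32.3% likewise had no peak. CCNE1 (ENSG00000105173, chr19:30302898-30315219, plus strand), the partner of CDK2, had 2 i∆HSA peaks. One lay 5.72 kb upstream (chr19:30296328-30297174, score 4) and the other at the edge of the window, 19.6 kb beyond the gene (chr19:30334838-30337331, score 8), with a GC content of 61.7% and 22 matches to the GC box. Several of these matches were evenly spaced, as in a repeated sequence, for example those starting at 30335654, 30335674, 30335694, 30335714 and 30335734. Their number is therefore not a count of separate elements. The nearest iBRG1 peak was 42.6 kb from CCNE1 with a score of 3.

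CDK6, the kinase that cyclin D1 activates (ENSG00000105810, chr7:92234235-92465887, minus strand), carried the highest-scoring peaks of the set. Its intron 3 peak at chr7:92379926-92382538 had an iBRG1 score of 69, which 0.0537% of that list equalled or passed, and the overlapping i∆HSA peak at chr7:92379699-92382595 had a score of 26, within the top 5.74%. Its intron 5 pair had the reverse order, with an iBRG1 score of 46 (chr7:92261685-92265075, top 0.310%) and an i∆HSA score of 139 (chr7:92261206-92264334, top 0.276%). A window with an iBRG1 score of 69 or more was found for 9 protein-coding genes (0.0446%), and one with an i∆HSA score of 139 or more for 49 (0.243%). A peak of the top 1% of the iBRG1 list lay in the windows of 1.16% of protein-coding genes, and one of the top 1% of the i∆HSA list in 1.01%. The CDK6 window is 272 kb long, and among windows of at least 200 kb, a limit also chosen after seeing the data, these shares were 4.34% and 3.80%.

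The remaining CDK6 peaks had lower scores. The third shared pair lay downstream of the gene, with an iBRG1 score of 7 (chr7:92224205-92225116) and an i∆HSA score of 19 (chr7:92224222-92225536), 4.95 kb and 5.17 kb from the start of FAM133B by their midpoints. The iBRG1 list alone had peaks in intron 3 (chr7:92369924-92372417, score 8) and in intron 4 (chr7:92351505-92353840, score 3). The intron 4 peak was the 1 member peak with a TEAD element (ACATTCC) near its centre, starting 5 bp from the midpoint. The i∆HSA list alone had a peak just upstream of CDK6 (chr7:92466656-92468986, score 14), whose edge was 0.769 kb from the start site, with a GC content of 28.9% and an overlap with CDK6-AS1. The nearest iBRG1 peak was 76.4 kb from it, and the 5 iBRG1 peaks of CDK6 lay in introns or downstream.

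**Figure D3:**
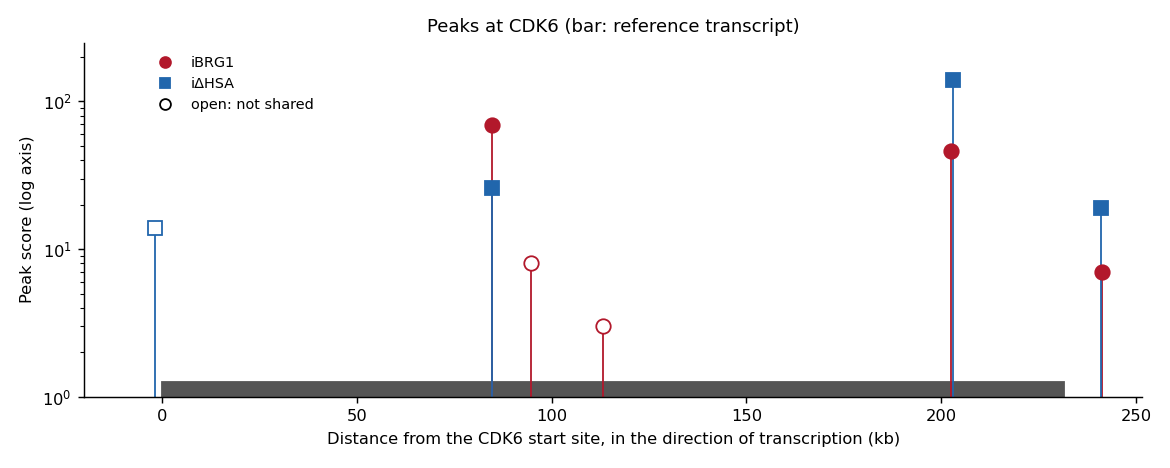
Score of each CDK6 peak on a log axis against the distance of its midpoint in kb from the CDK6 start site, with circles for iBRG1, squares for i∆HSA, open symbols for peaks that were not shared and a bar for the reference transcript. The iBRG1 score is the higher of the pair in intron 3 (69 and 26) and the lower in intron 5 (46 and 139), and the i∆HSA list alone has a peak (score 14) just upstream of the gene.

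E2F1 (ENSG00000101412, chr20:32263283-32274191, minus strand), the transcription factor that the pocket proteins restrain, had 1 peak in each list, and these were 14.3 kb apart. The i∆HSA peak (chr20:32261605-32263213, score 3) ended 0.070 kb from the 3′ end of E2F1 and lay at the promoter of NECAB3. The iBRG1 peak (chr20:32246965-32247256, score 1) lay 16.0 kb beyond the gene at the start of another NECAB3 transcript. Both were GC-rich, at 63.3% and 60.6%, and neither touched the E2F1 promoter.

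A promoter peak, within 1 kb of the start of any transcript of the gene, was found at 2 of the 10 genes in the iBRG1 list (CDKN1B and CDKN2A) and at 4 in the i∆HSA list (RB1, CDKN1B, CDKN2A and CDK6). Among all protein-coding genes the shares were 18.2% and 20.9%. The CDKN1B call rested on its alternative transcript, and counting protein-coding transcripts alone left 1 gene in the iBRG1 list and 3 in the i∆HSA list. With 3 kb on each side CDK6 also had an iBRG1 promoter peak, near the start of a transcript other than the reference one, and the counts were 3 and 4. Most peaks of these windows were far from the start of the gene they were assigned to. The nearest protein-coding start was that of the member for 8 of 17 peaks in the iBRG1 list and 8 of 21 in the i∆HSA list. Of the iBRG1 peaks 12 lay inside the annotated gene, and of the i∆HSA peaks 8 did, and 8 and 4 of them were in an intron of the reference transcript.

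The 7 shared pairs were compared by their scores. The i∆HSA score was the higher of the pair in 6 of 7, namely at RB1 (1 and 3 in the order iBRG1 and i∆HSA), both CDKN1B pairs (2 and 7, and 5 and 8), CDKN2A (2 and 7), CDK6 intron 5 (46 and 139) and downstream of CDK6 (7 and 19). The exception was CDK6 intron 3. In the whole lists the i∆HSA score was the higher one in 3291 of 4979 overlapping pairs (66.1%), with medians of 5 and 8, so the i∆HSA scores ran higher in general. The score has no stated scale and the depth is unknown, so it cannot be read as an amount of protein across the lists.

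**Figure D4:**
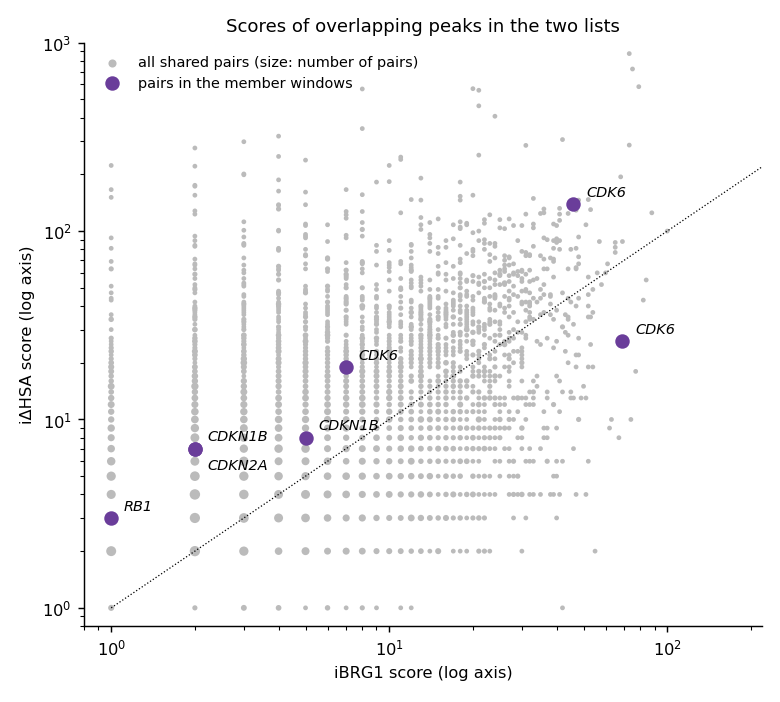
Score of overlapping peaks, iBRG1 on the horizontal and i∆HSA on the vertical log axis, with grey points for 4951 pairs of the lists (a larger point holds more pairs, and 28 pairs with an iBRG1 score of 0 are not drawn), purple points for the 7 pairs of the 10 windows and a dotted line at equal scores. The CDK6 intron 3 pair (69 and 26) is the only purple point below the line, and the CDKN1B and CDKN2A pairs with scores of 2 and 7 share 1 point.

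The letters of known elements were searched on both strands, and none of the elements contains another. An element counted as near the centre only if all of it lay within 100 bp of the peak midpoint. An AP-1 element was there in 2 of 17 iBRG1 peaks (11.8%, and 8.89% of the list) and in 2 of 21 i∆HSA peaks (9.52%, and 6.18% of the list). The match in the i∆HSA peak of CDK6 intron 5, which begins 99 bp from the midpoint, runs past this limit and was not counted. Over the whole peak it was found in 10 of 17 (58.8%, and 41.2% of the list) and 11 of 21 (52.4%, and 31.3% of the list), and the member peaks were also wider, with medians of 1435 bp and 2119 bp against 1321 bp and 1318 bp. In 5 of the 7 shared pairs both peaks held an AP-1 element, as did 55.1% of the 4979 overlapping pairs of the lists. The pair at the RCBTB2 promoter in the RB1 window had none, and in the pair at the GPR19 promoter only the i∆HSA peak had one.

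The E2F element was searched as TTTCCCGC, TTTGGCGC, TTTCGCGC and TTTGCCGC. It was near the centre of none of the peaks, against 0.392% of the iBRG1 list and 0.378% of the i∆HSA list. Over whole peaks it was found in 2 iBRG1 peaks (2.71% of the list) and 2 i∆HSA peaks (3.07% of the list), namely the pair at the RCBTB2 promoter, the CDK6 intron 3 peak of the iBRG1 list alone and the RB1 promoter peak shown above. A GC box was near the centre of 2 iBRG1 peaks (11.8%, and 4.63% of the list) and 3 i∆HSA peaks (14.3%, and 5.49% of the list), and over whole peaks it was found in 3 iBRG1 peaks (17.6%, and 18.8% of the list) and 6 i∆HSA peaks (28.6%, and 22.3% of the list). Both i∆HSA counts include the peak downstream of CCNE1 with evenly spaced matches. The decamer of the p53 element was near the centre of 1 iBRG1 peak (5.01% of the list) and 0 i∆HSA peaks (4.36% of the list). Over whole peaks it was found in 6 iBRG1 peaks (35.3%, and 31.0% of the list) and 10 i∆HSA peaks (47.6%, and 27.5% of the list), but not in the i∆HSA peak downstream of CDKN1A, a well-known p53 target gene. A TEAD element was near the centre of 1 iBRG1 peak (3.98% of the list) and 0 i∆HSA peaks (2.96% of the list), and over whole peaks in 4 iBRG1 peaks (23.5%, and 23.9% of the list) and 9 i∆HSA peaks (42.9%, and 19.9% of the list). The part of the greater width of the member peaks in these whole-peak shares was not tested. A match is a description of the letters and not of binding by that factor.

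The same windows were examined for 46 other genes of the pathway in 6 classes. An iBRG1 peak was found for 25 (54.3%), an i∆HSA peak for 36 (78.3%), peaks of both lists for 22 and a shared peak for 15 (32.6%), and 7 genes had no peak. Among all protein-coding genes these shares were 57.9% for an iBRG1 peak, 64.6% for an i∆HSA peak, 44.1% for both lists and 23.1% for a shared peak, and with 4 to 13 genes a class the counts below are a description beside them. Of the 9 other cyclin and kinase genes 2 had an iBRG1 peak (CCND3 and CDK2) and 6 an i∆HSA peak. CDK4, the close relative of CDK6, had 2 i∆HSA peaks, each with a score of 3, and no iBRG1 peak. Of the 4 other inhibitor genes 0 had an iBRG1 peak and 3 an i∆HSA peak, with scores of 10 at CDKN2B, 11 at CDKN2C and 2 at CDKN1C. The CDKN2B peak overlapped an iBRG1 peak with a score of 4 that itself lay outside the CDKN2B window.

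Among the E2F genes and their partners 5 of 9 had an iBRG1 peak and 8 of 9 an i∆HSA peak. The DREAM complex represses cell cycle genes with RBL1 and RBL2. Of the 6 genes listed in this class 5 had a peak in each list (83.3%), namely LIN9, LIN37, LIN52, LIN54 and RBBP4. LIN52 alone had a shared one (16.7% of the class). Some of these peaks lay at a neighbour's start. The nearest protein-coding start was PSENEN (0.066 kb, iBRG1) and PROSER3 (0.097 kb, i∆HSA) at LIN37. It was SEC31A for the LIN54 iBRG1 peak (0.992 kb) and SYNC for an RBBP4 i∆HSA peak (0.061 kb). MYBL2, the other gene of the class, which is not counted here as part of that repressive complex, had no peak. Of the 5 genes of turnover and upstream control 4 had an iBRG1 peak and 4 an i∆HSA peak. Of the 13 E2F target genes 9 had an iBRG1 peak, 10 an i∆HSA peak and 6 a shared one.

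A promoter peak in both lists was found at 7 of the 46 genes (15.2%), against 7.69% of all protein-coding genes: CCND3, E2F3, LIN52, MCM2, MCM7, PCNA and RRM2. Of these MCM2 and MCM7 (subunits of the replicative helicase), PCNA (the sliding clamp of DNA polymerase) and RRM2 (a subunit of ribonucleotide reductase) are E2F targets. The MCM7 promoter peak had an iBRG1 score of 18 (chr7:99698574-99699574) and an i∆HSA score of 3, the PCNA pair had scores of 5 and 13, the RRM2 pair 6 and 9, and the MCM2 pair 2 and 2. At CCND3 the promoter peaks of the lists lay at different transcript starts and did not overlap. Some of these promoter peaks had a neighbour's start as their nearest protein-coding start. In the iBRG1 list these were TAF8 for the CCND3 peak (0.391 kb) and CDS2 for the peak of the PCNA pair (0.350 kb). In the i∆HSA list they were AP4M1 for the MCM7 peak (0.278 kb) and ALDH6A1 for the LIN52 peak (0.221 kb). The highest i∆HSA score, 54, lay in the MCM7 window at chr7:99684179-99685586, 1.71 kb from the start of COPS6, and was not shared. The CDC6 window held a shared pair with an iBRG1 score of 20 (chr17:38469576-38472489) and an i∆HSA score of 36, where the nearest start was that of RARA. The CDK2 window held a shared pair with an iBRG1 score of 17 (chr12:56365807-56367861) and an i∆HSA score of 38, where the nearest start was that of PMEL, though the iBRG1 peak also lay within 1 kb of a CDK2 transcript start. These iBRG1 scores were below those of the intron 3 and intron 5 peaks of CDK6 (69 and 46), while the i∆HSA scores of 54, 38 and 36 were above that of CDK6 intron 3 (26) and below that of intron 5 (139).

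**Figure D5:**
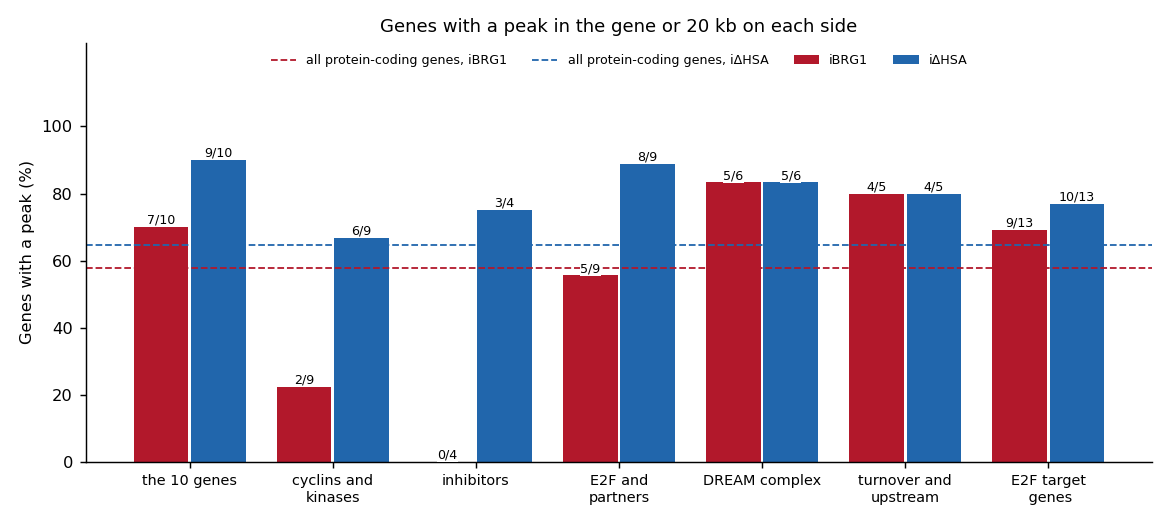
Share of genes, in percent, with a peak in the gene or 20 kb on each side, for the 10 genes and for each class of the 46 other pathway genes, with red bars for iBRG1, blue bars for i∆HSA, gene counts above the bars and dashed lines at the shares of all protein-coding genes (57.9% and 64.6%). The i∆HSA bar is at or above the iBRG1 bar in every class, and the bar for the 4 other inhibitor genes is at 0 for iBRG1.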

How the data were processed

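Sample titles gave the groups of the 4 CUT&RUN samples. Reads were processed by the authors with Cutadapt (adapters), Bowtie2 (alignment), Picard (duplicates) and SAMtools, and peaks were called with MACS2, version 2.2 in the submitters' processing notes. The study's methods then name the removal of negative-control peaks and a minimum score of 5. The deposited score of each peak has no stated scale and runs below 5 in both lists, so that minimum was not applied to this column as it stands. The lists used here held 24212 (iBRG1) and 25371 (i∆HSA) peaks, more than the study's text gives for either construct. Of these, 6575 and 10440 had a score of 5 or more. The lists may therefore hold weak peaks that the study did not count as binding sites. Peak numbers in the lists run up to 340229 (iBRG1) and 286854 (i∆HSA), so both lists are a subset of the peaks called. Pooling of the replicates before peak calling is not given in the sources used here. How duplicates and control peaks were removed sets which sites can appear.

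The build named in the processing notes is hg19, and 0 peaks ended beyond a chromosome end of GRCh37. Genes came from GENCODE release 44 mapped to GRCh37, with the reference transcript of each gene used for start sites, exons and introns. A peak in the top 1% of a list is one whose score that share of the list or less equalled or passed. Each gene of the 10 was named with all its peaks, and the other pathway genes named were those with the 3 highest-scoring peaks of each list or a promoter peak in both lists. The other genes named in the text were chosen after their values were seen. The 10 genes and the pathway list were chosen with earlier results of these data known. Overlap rules were tested on simulated intervals. Scripts ran under Python 3.11.15 with pandas 2.3.3, numpy 2.4.6, pysam 0.24.0, scipy 1.17.1 and, for the plots, matplotlib 3.10.9. In all 15 alternatives were tried.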

Additional observations from a re-analysis of the deposited data

How the results depend on the processing

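No paired analysis was possible because the peak lists carry no value per replicate, and leaving out each replicate could not be run for the same reason. Alternatives to the 20 kb window and to the use of all deposited peaks changed the values of these 10 genes as follows, and in each case the setting itself takes out or adds peaks. The matching shares of all protein-coding genes and of the whole lists were not computed at these settings. The values below therefore cannot be set beside the shares given above. With the annotated gene alone, i∆HSA peaks were found at 5 genes, and there were 8 of them (10.0 per Mb, 62.5% shared). There were 11 i∆HSA peaks with 5 kb on each side and 32 with 50 kb. When a peak counted only at the gene with the nearest protein-coding start, iBRG1 peaks were left at 4 genes, both lists had 8 peaks (6.69 per Mb), 4 genes had peaks of both lists and 2 a shared peak. With a score of at least 5 there were 6 iBRG1 peaks at 2 genes (5.01 per Mb, 66.7% shared) with 1 promoter gene, 12 i∆HSA peaks (10.0 per Mb), and 2 genes with peaks of both lists and with a shared peak. At or above the median score there were 11 iBRG1 and 13 i∆HSA peaks, with 4 genes in both lists. With protein-coding transcripts alone 1 gene had an iBRG1 promoter peak. The other 85 values of these results stayed within 1.5 times the reported count or within its interval. Among them were those without CDK6 and those with the reference transcript in place of the annotated gene, both chosen after seeing the data. The intervals are wide, so a value that stayed inside one can still differ clearly. With the nearest protein-coding start only, the shared percentage was 25.0% in each list (2 of 8 peaks), against 41.2% and 33.3% in the main setting. Searching the whole peak raised all 10 element counts, 9 of them by more than 1.5 times. No read depth can be given, so weak sites that were missed cannot be told apart from sites that were not bound.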
